A study of Mus musculus with 21 samples.

Results

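The genes described here are the embryonic and adult globins of the mouse, the genes for the protein chains of hemoglobin. They were taken by symbol from both expression tables. All 9 symbols (Hbb-bh1, Hbb-y, Hba-x, Hba-a1, Hba-a2, Hbb-bs, Hbb-bt, Hbb-b1 and Hbb-b2) were found among the 22899 genes of the coculture table, and 7 of them among the 27968 genes of the sorted-cell table, where Hbb-b1 and Hbb-b2 were not listed. RNA-seq was performed on 21 libraries with 3 replicates in each group. The coculture table held 6 libraries from total cells on day 5, after hematopoietic-like colonies from the 3D peptide induction of mouse pluripotent stem cells (PSCs) had been replated. In 3D+OP9 they were placed on OP9 cells, a mouse bone marrow stromal line treated with mitomycin C, and in 3D+0.1% gelatin on gelatin without stroma. The sorted-cell table held 15 libraries: mouse embryonic stem cells sorted for SSEA-1 (mESC), D5-LSKCD201+ and D5-LSKCD201- cells sorted on day 5 from 3D+OP9, FL-LSKCD201+ cells from fetal liver at E12.5, and BM-LSKCD201+ cells from the bone marrow of mice aged 6 to 8 weeks. LSK stands for lineage-negative, Sca-1-positive and c-kit-positive, and CD201 is the product of Procr. The strain background was labelled 129/ola for the cultured cells and mESC and C57BL/6 for fetal liver and bone marrow. The paper's methods name both 129/ola and C57BL/6 mice as sources of its embryonic stem cells. By the labels, strain and cell source cannot be told apart in a comparison of cultured with tissue cells. The study describes the 3 libraries of each sorted group as biological replicates, but the labels do not tie a library to a separate culture or animal, so the p-values measure the spread between these libraries.

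Hemoglobin is built from alpha-like and beta-like chains, and the genes of each kind stand in a cluster in which embryonic genes are used before adult ones. The embryonic genes are Hba-x (zeta globin) in the alpha cluster and Hbb-bh1 (beta-h1) and Hbb-y (epsilon-y) in the beta cluster. They are the signature of primitive erythroid cells of the yolk sac, which also use the adult alpha genes Hba-a1 and Hba-a2. Definitive red cells, made in the fetal liver and later in the bone marrow, use the adult alpha genes with the adult beta genes. Hbb-bs and Hbb-bt name the adult beta pair of the C57BL/6 haplotype, and Hbb-b1 (beta-major) and Hbb-b2 (beta-minor) are older names for the pair of another haplotype. Within the primitive lineage, Hbb-bh1 is used early and Hbb-y later.

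In GRCm38 the beta cluster lies on the minus strand of chromosome 7, with Hbb-y at 103851749 to 103853216, Hbb-bh1 at 103841637 to 103843164, Hbb-bs at 103826534 to 103828096 and Hbb-bt at 103812524 to 103813996. The alpha cluster lies on the plus strand of chromosome 11, with Hba-x at 32276400 to 32278116, Hba-a1 at 32283511 to 32284465 and Hba-a2 at 32296489 to 32297298. These spans are those of the sorted-cell table and of GENCODE M21, and each covers the exons, introns and untranslated ends of its gene. The coding sequences of Hba-a1 and Hba-a2 differed at 1 of 429 bases, and those of Hbb-bs and Hbb-bt at 1 of 444. How the reads were divided within either pair is therefore uncertain, and the sum of a pair is safer than its parts. The embryonic genes can be told apart: the coding sequences of Hbb-bh1 and Hbb-y were 76.4% identical, and those of Hba-x and Hba-a1 62.0%.

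Promoter sequence from RefSeq (GRCm38.p6) was matched for 6 members, and a stretch is shown for an embryonic beta-like gene, an adult alpha gene and an adult beta gene that moved in the data below; none is shown for Hba-x, whose window overlaps annotated exons. Each line starts 150 bases before the RefSeq start site and stops before any GENCODE exon. Capitals mark the CCAAT box and the CACCC box, which Klf1 binds in erythroid promoters. They also mark ATATAA, a form of the TATA box. On the opposite strand the CCAAT box reads ATTGG. These motifs were searched on both strands, together with GATAA, which forms the core of many GATA factor sites, and no match overlapped another. Hbb-y lies at chr7:103853217-103853357 (minus strand), Hba-a2 at chr11:32296342-32296488 (plus strand) and Hbb-bt at chr7:103813997-103814073 (minus strand).
Hbb-y: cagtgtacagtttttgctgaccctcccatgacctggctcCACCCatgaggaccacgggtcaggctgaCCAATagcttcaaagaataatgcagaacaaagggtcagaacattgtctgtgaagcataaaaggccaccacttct
Hba-a2: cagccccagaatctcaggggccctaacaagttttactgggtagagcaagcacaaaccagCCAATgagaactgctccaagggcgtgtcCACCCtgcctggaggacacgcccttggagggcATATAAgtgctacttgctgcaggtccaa
Hbb-bt: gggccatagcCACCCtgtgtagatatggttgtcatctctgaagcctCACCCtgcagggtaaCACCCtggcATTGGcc
Over the whole 150 bases, CACCC was found in 6 of the 6 member promoters, against 37.4% of all 32851 promoters in the table, and CCAAT in 5, against 24.5%. ATATAA was found in 5, against 5.35%, and GATAA in 1 (Hba-x), against 13.3%. The promoter without CCAAT was that of Hba-x, and the one without ATATAA was that of Hbb-y. Hbb-bh1 was not among the 6. The aligned promoters of Hba-a1 and Hba-a2 were 96.1% identical and those of Hbb-bs and Hbb-bt 70.9%. The 6 are therefore not independent, and their counts beside the shares of all promoters are a description only.

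Values are FPKM, fragments per kilobase of transcript scaled to the size of the library, so levels of different genes can be set side by side per length. Some libraries stood apart from their group. FL-LSKCD201+ replicate 1 differed from replicates 2 and 3 by a median of 0.28 and 0.27 (absolute log2 ratio over genes), whereas those replicates differed from each other by 0.07. In the same way D5-LSKCD201- replicate 2, BM-LSKCD201+ replicate 1 and 3D+OP9 replicate 3 stood away from a close pair in their groups, and calls that rest on FL-LSKCD201+ replicate 1 or D5-LSKCD201- replicate 2 are given with and without it. Procr was at 57.9 to 61.9 FPKM in D5-LSKCD201+ and 3.02 to 3.82 in D5-LSKCD201-, as labelled, and at 66.6 to 69.4 in FL-LSKCD201+ and 117 to 123 in BM-LSKCD201+. The 10 pluripotent markers summed to 6891 to 7455 FPKM in mESC, 3777 to 4280 in D5-LSKCD201- and 26.4 to 35.5 in D5-LSKCD201+.

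The coculture comparison asked what OP9 stroma added to the total day 5 culture. The embryonic globins rose in 3D+OP9 over 3D+0.1% gelatin, and the adult alpha genes rose with them, at levels below those of Hbb-bh1 and Hba-x but above that of Hbb-y. Hbb-bh1 was the member with the highest level in each 3D+OP9 library, at 110.84, 203.97 and 412.57 FPKM in replicates 1, 2 and 3, against 0.27, 0.09 and 7.08 FPKM in 3D+0.1% gelatin. The lowest 3D+OP9 library was far above the highest gelatin library, and replicate 3 was the highest of both groups. The log2 fold change was 6.56 ± 0.79 (SE), with an adjusted p of 0.0045 (limma on log2(FPKM + 1), Benjamini-Hochberg over all genes tested). Hba-x, its embryonic alpha-like counterpart, was at 65.1, 150.07 and 261.74 FPKM in 3D+OP9 and at 0, 0.09 and 6.92 FPKM on gelatin. Replicate 3 was again the highest library of each group, and the log2 fold change was 6.07 ± 0.83 (adjusted p = 0.0072). Hbb-y, the later embryonic gene, was much lower, at 1.89, 4.3 and 10.45 FPKM in 3D+OP9 and 0.09, 0 and 0.61 FPKM on gelatin. Its groups did not overlap, and its log2 fold change was 2.21 ± 0.46 (adjusted p = 0.031). Hbb-y made up 1.68% to 2.47% of the embryonic beta-like FPKM in the 3D+OP9 libraries.

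Of the adult alpha genes, Hba-a1 was at 26.08, 53.11 and 72.46 FPKM in 3D+OP9 and at 0.5, 0.24 and 3.59 FPKM on gelatin, a log2 fold change of 4.54 ± 0.54 (adjusted p = 0.0042). Hba-a2 was at 7.44, 12.57 and 24.83 FPKM against 0.48, 0.24 and 0 FPKM, a log2 fold change of 3.55 ± 0.38 (adjusted p = 0.0028). Neither gene overlapped between the groups, and the listed level of Hba-a1 was 2.92 to 4.23 times that of Hba-a2 in 3D+OP9. Of the adult beta genes only Hbb-b1, at about the level of Hbb-y, was high enough to be tested. It was at 1.49, 4.9 and 6.16 FPKM in 3D+OP9 and at 0.09, 0.04 and 0.26 FPKM on gelatin, a log2 fold change of 2.07 ± 0.36 (adjusted p = 0.017). Hbb-b2 was at 0.2, 0.41 and 0.24 FPKM in 3D+OP9 and listed at 0 in the 3 gelatin libraries, and it was too low to be tested. Hbb-bt was listed at 0 in the 3D+OP9 libraries and had the values of Hbb-b1 in the 3 gelatin libraries, and Hbb-bs was listed at 0 in every library, so these symbols carried no separate information here.

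**Figure D1:**
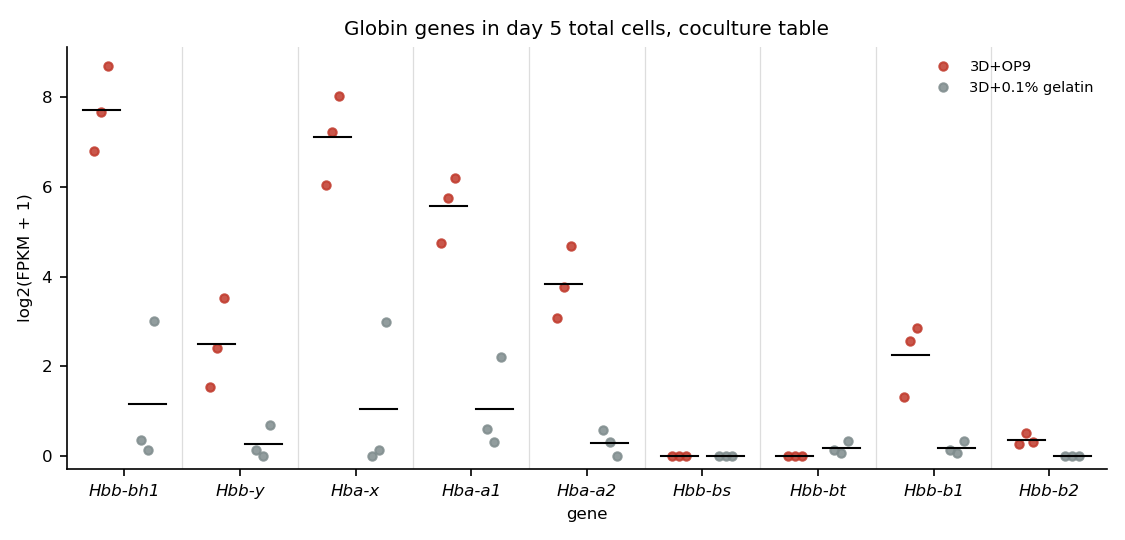
Level of each globin gene on the log2(FPKM + 1) scale in the 3 libraries of 3D+OP9 (red) and of 3D+0.1% gelatin (grey); points are libraries and lines are means. Hbb-bh1 and Hba-x lie highest in 3D+OP9, Hbb-b1 lies about where Hbb-y does, the other adult beta genes lie near 0, and gelatin replicate 3 lies above the other gelatin libraries for Hbb-bh1, Hba-x and Hba-a1.

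In all, 6 of the 9 members passed the filter on low values (a mean of at least 0.5 FPKM), and 6 of these 6 were called at an adjusted p under 0.05 and a log2 fold change of at least 1, all of them higher in 3D+OP9. Among all 12958 genes tested 2.62% were called, and 2.11% were called higher. The median log2 fold change of the tested members was 4.05, beside 0.01 over all genes. Of the 6, Hba-a2, Hbb-y and Hbb-b1 averaged 0.24, 0.23 and 0.13 FPKM on gelatin and passed the filter only through 3D+OP9, where they were high, so they had to differ, and the count and the median are a description only. The 3 members that failed the filter (Hbb-b2, Hbb-bt and Hbb-bs) are outside both. The sum of the members was 213, 429 and 788 FPKM in 3D+OP9, or 0.0441% to 0.157% of the library's FPKM, against 1.52, 0.74 and 18.7 FPKM on gelatin. Gelatin replicate 3 held far more globin FPKM than either other gelatin library, and its hepatoblast markers, several of which are also made by yolk sac endoderm, summed to 19.69 FPKM against 1.98 and 1.3 FPKM, a difference whose part in the globin level was not tested. Without that library the log2 fold change of Hbb-bh1 was 7.49 and that of Hba-x 7.05. Hbb-y and Hbb-b1 lost their calls without 3D+OP9 replicate 2 (adjusted p = 0.095 and 0.069) and without any 1 gelatin replicate (0.065 to 0.14 for Hbb-y and 0.054 to 0.093 for Hbb-b1), with log2 fold changes of 2.08 to 2.42 and 1.91 to 2.15 in these fits, and Hbb-y also without the filter on low values (adjusted p = 0.055). Since these are bulk samples, more globin-expressing cells and more globin RNA per cell cannot be told apart.

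Erythroid regulators and genes of heme synthesis were read from lists beside the globins. Of 22 regulators of globin genes tested, 8 were called higher in 3D+OP9 and 0 lower, where 2.11% of all 12958 genes were called higher. The median of the regulators was 0.69 on the log2 scale beside 0.01 over all genes. Gata1, the main erythroid GATA factor, was at 3.22, 4.01 and 4.62 FPKM in 3D+OP9 and 0.05, 0.08 and 0.24 FPKM on gelatin (log2 fold change 2.13 ± 0.15, adjusted p = 0.00072). Tal1, its partner in erythroid enhancer complexes, rose by a log2 fold change of 2.19 ± 0.23 (adjusted p = 0.0028), and Nfe2, which acts at the beta-globin control region, by 1.83 ± 0.16 (adjusted p = 0.0014). Klf1, an activator of adult beta globin, was at 1.1, 1.64 and 2.15 FPKM against 0.27, 0.41 and 0.41 FPKM. Its groups did not overlap, but the log2 fold change of 0.93 ± 0.17 (adjusted p = 0.019) missed the fold threshold. It was 1.87 with a pseudocount of 0.1, 1.29 after rescaling to equal totals, 1.08 without 3D+OP9 replicate 1 and 1.0 with the closest pair of replicates averaged, and passed in each. Gata1 and Klf1 were under 0.5 FPKM in every gelatin library and passed the filter only through 3D+OP9, so they had to differ. The count and the median of the regulators are therefore a description only. Bcl11a, which silences embryonic globins in adult cells, was not called (log2 fold change -0.64 ± 0.27, adjusted p = 0.22), nor were Sox6, which acts with it (0.62 ± 0.14, adjusted p = 0.041; called at 1.47 with a pseudocount of 0.1), Myb (0.49 ± 0.32, adjusted p = 0.40), Zbtb7a (-0.28 ± 0.11, adjusted p = 0.18), Lin28b (-0.21 ± 0.12, adjusted p = 0.36) and Gata2 (0.76 ± 0.29, adjusted p = 0.18). Without 3D+OP9 replicate 3 Gata2 was called, at 1.04 (adjusted p = 0.024).

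For the counts that follow, 2.62% of all genes tested in the coculture were called, and 2.11% were called higher. Of 11 heme synthesis genes tested 1 was called, Alas2, the erythroid form of the first enzyme of the pathway. It was at 3.54, 4.9 and 4.97 FPKM in 3D+OP9 and 0.32, 0.27 and 0.16 FPKM on gelatin (log2 fold change 2.12 ± 0.15, adjusted p = 0.00072). Alas2 passed the filter only through 3D+OP9, and it is also 1 of the erythroid markers. Its call and the counts that hold it are therefore a description only. Alas1, the form used by other cells, was not called (0.20 ± 0.13, adjusted p = 0.44), and neither was Tfrc, the transferrin receptor (0.11 ± 0.12, adjusted p = 0.62). Of 13 erythroid markers tested, 3 were called higher and 1 lower. Slc4a1, the red cell anion exchanger of later erythroid stages, was at 0.34 to 0.63 FPKM against 0 to 0.05 FPKM and was not tested. The 23 erythroid markers found summed to 161.74 to 188.06 FPKM in 3D+OP9 and 256.34 to 351.69 FPKM on gelatin, and to 33.14 to 54.06 and 24.32 to 31.84 FPKM without Car2, which is not restricted to red cells. Genes of other cells moved as well: 7 of 10 endothelial markers, 3 of 4 megakaryocyte markers tested and 3 of 9 stromal markers tested were higher in 3D+OP9, and stromal markers summed to 62.96 to 72.48 FPKM against 29.5 to 41.15 FPKM. All 10 megakaryocyte markers together summed to 0.9 to 1.31 FPKM on gelatin. Some of the 4 tested could thus pass the filter only through 3D+OP9, and their count is a description only. What part the genes of these other cells had in the globin result was not tested.

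In the sorted cells, the embryonic globins were found in the D5 cells and in fetal liver. Hbb-bh1 was at 34.0, 84.1 and 37.6 FPKM in D5-LSKCD201-, 10.7, 17.9 and 19.1 FPKM in D5-LSKCD201+ and 9.39, 23.8 and 21.4 FPKM in FL-LSKCD201+. It was at 0, 0.127 and 0.129 FPKM in BM-LSKCD201+ and at 0, 0 and 0.0696 FPKM in mESC. By group medians D5-LSKCD201- came first, above FL-LSKCD201+ and D5-LSKCD201+, which overlapped, and BM-LSKCD201+ and mESC also overlapped. Hba-x was at 6.25, 24.4 and 8.54 FPKM in D5-LSKCD201-, 3.69, 9.13 and 10.3 FPKM in D5-LSKCD201+ and 12.8, 2.38 and 2.91 FPKM in FL-LSKCD201+. These 3 groups overlapped, while BM-LSKCD201+ reached at most 0.0764 FPKM and mESC was listed at 0 in its 3 libraries. Hbb-y followed another order, at 90.3, 10.6 and 8.46 FPKM in FL-LSKCD201+, 1.09, 0.151 and 1.55 FPKM in D5-LSKCD201- and 0.704, 1.54 and 0.925 FPKM in D5-LSKCD201+. It reached 0.336 FPKM in BM-LSKCD201+ and 0.0790 FPKM in mESC. Fetal liver was clear of the other groups for Hbb-y, the D5 groups overlapped each other, and D5-LSKCD201- also overlapped bone marrow. In fetal liver Hbb-y was 28.3% to 90.6% of the embryonic beta-like FPKM, against 0.179% to 7.91% in the 6 D5 libraries.

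The adult globins were dominated by fetal liver. Hba-a1 was at 4416, 10523 and 9668 FPKM in FL-LSKCD201+ and 77.4, 45.8 and 46.0 FPKM in BM-LSKCD201+. It was at 20.4, 22.5 and 22.1 FPKM in D5-LSKCD201-, 9.27, 9.26 and 11.97 FPKM in D5-LSKCD201+ and 5.60, 8.79 and 7.52 FPKM in mESC. No neighbouring groups in this order overlapped for Hba-a1. Hba-a2 was at 4987, 10738 and 11064 FPKM in FL-LSKCD201+, 84.1, 38.1 and 41.6 FPKM in BM-LSKCD201+, 10.3, 13.2 and 13.5 FPKM in D5-LSKCD201-, 6.34, 8.56 and 9.75 FPKM in D5-LSKCD201+ and 5.58, 6.93 and 7.90 FPKM in mESC. The order was that of Hba-a1, except that D5-LSKCD201+ and mESC overlapped. Hbb-bs was at 8651, 16578 and 15941 FPKM in FL-LSKCD201+ and 132, 96.9 and 98.1 FPKM in BM-LSKCD201+, and Hbb-bt at 4206, 8341 and 8052 FPKM and at 105, 120 and 119 FPKM. In the other 9 libraries Hbb-bs ranged from 7.54 to 14.0 FPKM and Hbb-bt from 3.80 to 7.43 FPKM, and mESC and the D5 groups overlapped their neighbours for both genes. The globins as a whole made up 4.37%, 7.45% and 7.31% of the FPKM of the fetal liver libraries, 0.0499% to 0.0719% in bone marrow and at most 0.0291% in the D5 cells.

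**Figure D2:**
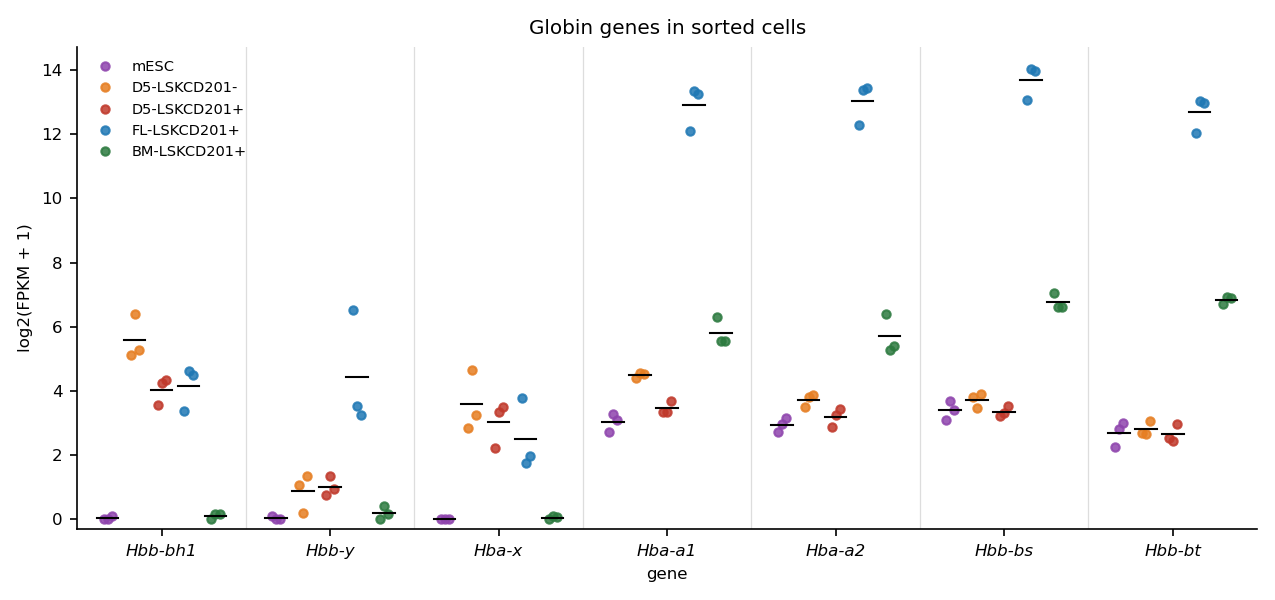
Level of the 7 listed globin genes on the log2(FPKM + 1) scale in 5 groups of sorted cells, with points for libraries and lines for means. The embryonic genes lie near 0 in mESC and BM-LSKCD201+, the adult genes are highest in FL-LSKCD201+, and fetal liver replicate 1 lies apart with less adult globin and more Hbb-y and Hba-x.

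The adult globins were not at 0 in mESC. The 12 values of the 4 adult genes in mESC lay between 0.0550% and 0.107% of the FL-LSKCD201+ mean of the same gene. In D5-LSKCD201+ they lay between 0.0605% and 0.146%, and in D5-LSKCD201- between 0.0728% and 0.275%. In the other direction, the 10 pluripotent markers in FL-LSKCD201+ had a median of 0.127% of their mESC mean, over a range of 0% to 29.4%, and 9 of the 10 were listed at 0 in BM-LSKCD201+ replicate 1. The source of these low levels was not tested, and adult globin values of this size in mESC and the D5 groups are given as listed, without being read as expression.

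D5-LSKCD201+ was compared with D5-LSKCD201- to see what separated the cells that carried CD201 from those that did not. Of the 7 members, 2 were called, both lower in D5-LSKCD201+, where 24.7% of all 13691 genes tested were called and 13.9% were called lower. Hbb-bh1 had a log2 fold change of -1.56 ± 0.36 (adjusted p = 0.0069) and its groups did not overlap. Without D5-LSKCD201- replicate 2, which had the highest value, it was -1.16 (adjusted p = 0.0019). Hba-a1 had a log2 fold change of -1.03 ± 0.11 (adjusted p = 0.00013), at the fold threshold: it was -0.98 after each library was rescaled to an equal FPKM total and -0.97 without either D5-LSKCD201+ replicate 1 or 2, where the call was lost. Its D5 levels are among the low adult globin values given above as listed, without being read as expression. The sum of Hba-a1 and Hba-a2 was 15.6 to 21.7 FPKM in D5-LSKCD201+ (mean 18.4) and 30.7 to 35.7 FPKM in D5-LSKCD201- (mean 34.0). This sum was not tested. Hba-a2 (-0.54 ± 0.17, adjusted p = 0.023), Hba-x (-0.57 ± 0.52, adjusted p = 0.36), Hbb-bs (-0.37 ± 0.14, adjusted p = 0.053), Hbb-bt (-0.16 ± 0.18, adjusted p = 0.46) and Hbb-y (0.15 ± 0.30, adjusted p = 0.69) were not called. For Hba-x the 95% interval of the difference ran from -1.80 to 0.66, so neither a large decrease nor none was resolved, and without D5-LSKCD201- replicate 2 the difference was -0.035 (adjusted p = 0.93). The median log2 fold change of the 7 members was -0.54, beside -0.12 over all genes.

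Against mESC, Hbb-bh1 and Hba-x were higher in both D5 groups. In D5-LSKCD201+ 2 of 7 members tested were called, both higher, where 37.6% of 13441 genes were called and 19.5% called higher. They were Hbb-bh1 (log2 fold change 4.01 ± 0.18, adjusted p = 5.0e-08) and Hba-x (3.02 ± 0.28, adjusted p = 7.3e-06). Hbb-y stood at 0.98 ± 0.14 (adjusted p = 0.00013), just under the fold threshold, and it was 3.19 and called with a pseudocount of 0.1. It was also called without mESC replicate 1 (1.02) and without D5-LSKCD201+ replicate 1 (1.11), but not without mESC replicate 2 or 3 (0.96 each). After rescaling to equal totals, 3 members were called. Of the adult genes, Hba-a1 differed by 0.44 ± 0.15 (adjusted p = 0.022), under the fold threshold but without overlap between the groups. Hba-a2, Hbb-bs and Hbb-bt differed by 0.23, -0.04 and -0.04 (adjusted p of 0.18 to 0.85), and for these 3 genes D5-LSKCD201+ could not be distinguished from mESC. In D5-LSKCD201- 3 of 6 members tested were called, all higher, where 14.3% of 13596 genes were called and 10.9% called higher (1476 higher and 473 lower, or 1104 and 741 after quantile normalization). These were Hbb-bh1 (5.57 ± 0.31, adjusted p = 9.1e-06), Hba-x (3.59 ± 0.42, adjusted p = 0.00032) and Hba-a1 (1.47 ± 0.15, adjusted p = 0.00014), and Hba-a2 had 0.77 ± 0.15 (adjusted p = 0.0037). The adult genes are again given as listed, without being read as expression. The listed Hba-a1 level was 1.63 to 1.99 times that of Hba-a2 in D5-LSKCD201-, whereas the ratio was 0.87 to 0.98 in fetal liver. The embryonic members tested against mESC (3 in D5-LSKCD201+ and 2 in D5-LSKCD201-, where Hbb-y failed the filter) passed it only through the D5 group, so the counts of called members are a description only. Both comparisons use the same mESC libraries.

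Against fetal liver, the D5 cells had far less adult globin, while the embryonic Hbb-bh1 and Hba-x were not lower by the test. In D5-LSKCD201+ 5 of 7 members were called, all lower, where 34.7% of 13627 genes were called and 19.6% called lower. The log2 fold change was -9.43 ± 0.33 for Hba-a1, -9.85 ± 0.32 for Hba-a2, -10.33 ± 0.26 for Hbb-bs and -10.03 ± 0.29 for Hbb-bt (adjusted p of 1.5e-07 to 6.1e-07). Hbb-y was lower too, by -3.41 ± 0.82 (adjusted p = 0.0081), and by -2.37 (adjusted p = 1.2e-05) without FL-LSKCD201+ replicate 1. Hbb-bh1 differed by -0.13 ± 0.37 (95% interval -1.001 to 0.750, adjusted p = 0.77) and Hba-x by 0.52 ± 0.59 (95% interval -0.89 to 1.93, adjusted p = 0.46). Without FL-LSKCD201+ replicate 1, Hba-x was higher in D5-LSKCD201+ by 1.16 (adjusted p = 0.018). In D5-LSKCD201- 6 of 7 members were called, 5 lower and 1 higher, where 37.3% of 14336 genes were called. The higher member was Hbb-bh1 (1.44 ± 0.44, adjusted p = 0.021), and this call was lost without FL-LSKCD201+ replicate 1 (1.04, adjusted p = 0.052) and without D5-LSKCD201- replicate 2 (1.03, adjusted p = 0.063). Hba-x was not called (1.09 ± 0.65, adjusted p = 0.17), but it was without FL-LSKCD201+ replicate 1 (1.73, adjusted p = 0.027). The lower members were the 4 adult genes (-8.40 to -9.96) and Hbb-y (-3.56 ± 0.83, adjusted p = 0.0070), which stood at -2.52 (adjusted p = 0.0011) without FL-LSKCD201+ replicate 1. Both D5 comparisons share the fetal liver libraries.

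Against bone marrow, the listed levels in D5-LSKCD201+ were higher for Hbb-bh1 and Hba-x and lower for the adult members. In D5-LSKCD201+ 6 of 7 members were called, 2 higher and 4 lower, where 44.7% of 13775 genes were called. The higher members were Hbb-bh1 (log2 fold change 3.93 ± 0.20, adjusted p = 1.1e-06) and Hba-x (2.96 ± 0.31, adjusted p = 6.0e-05). The lower members were Hba-a1 (-2.33 ± 0.21), Hba-a2 (-2.52 ± 0.30), Hbb-bs (-3.41 ± 0.14) and Hbb-bt (-4.20 ± 0.14), with adjusted p of 1.2e-07 to 0.00012. Hbb-y had 0.82 ± 0.17 (adjusted p = 0.0031), under the fold threshold, and was called at 1.27 after rescaling to equal totals, at 1.01 after quantile normalization and at 2.35 with a pseudocount of 0.1. The 3 embryonic members averaged at most 0.157 FPKM in bone marrow and passed the filter only through D5-LSKCD201+, where they were higher. The count of called members is therefore a description only.

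Between the tissues, 7 of 7 members were called higher in FL-LSKCD201+ than in BM-LSKCD201+, where 19.1% of 13503 genes were called and 7.78% called higher. Their median log2 fold change was 5.83, beside -0.13 over all genes. Hbb-bh1, Hbb-y and Hba-x averaged 0.0855, 0.157 and 0.0432 FPKM in bone marrow and passed the filter only through fetal liver, so the count and the median are a description only. The adult genes differed by 5.83 ± 0.27 (Hbb-bt), 6.92 ± 0.28 (Hbb-bs), 7.11 ± 0.36 (Hba-a1) and 7.33 ± 0.40 (Hba-a2), with adjusted p of 3.3e-06 to 1.1e-05. Hbb-bh1 differed by 4.05 ± 0.32 (adjusted p = 5.4e-05), Hbb-y by 4.23 ± 0.79 (adjusted p = 0.0032) and Hba-x by 2.44 ± 0.49 (adjusted p = 0.0045). Without FL-LSKCD201+ replicate 1 the values were 3.19 for Hbb-y and 1.80 for Hba-x, and both were still called (adjusted p = 3.1e-05 and 7.3e-05). These fits ignored the replicate number. In limma with that number as a block, the 7 members were still called, with larger adjusted p of 8.7e-05 (Hbb-bt) to 0.0071 (Hba-x). The listed Hbb-bs level was 1.98 to 2.06 times that of Hbb-bt in fetal liver and 0.808 to 1.26 times in bone marrow. How reads were divided within this pair is uncertain, so the ratios are given as listed. Within bone marrow, replicate 1 had more adult alpha globin than replicates 2 and 3 (161 against 83.8 and 87.6 FPKM for Hba-a1 plus Hba-a2), while adult beta globin was alike (237 against 217 and 217 FPKM).

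**Figure D3:**
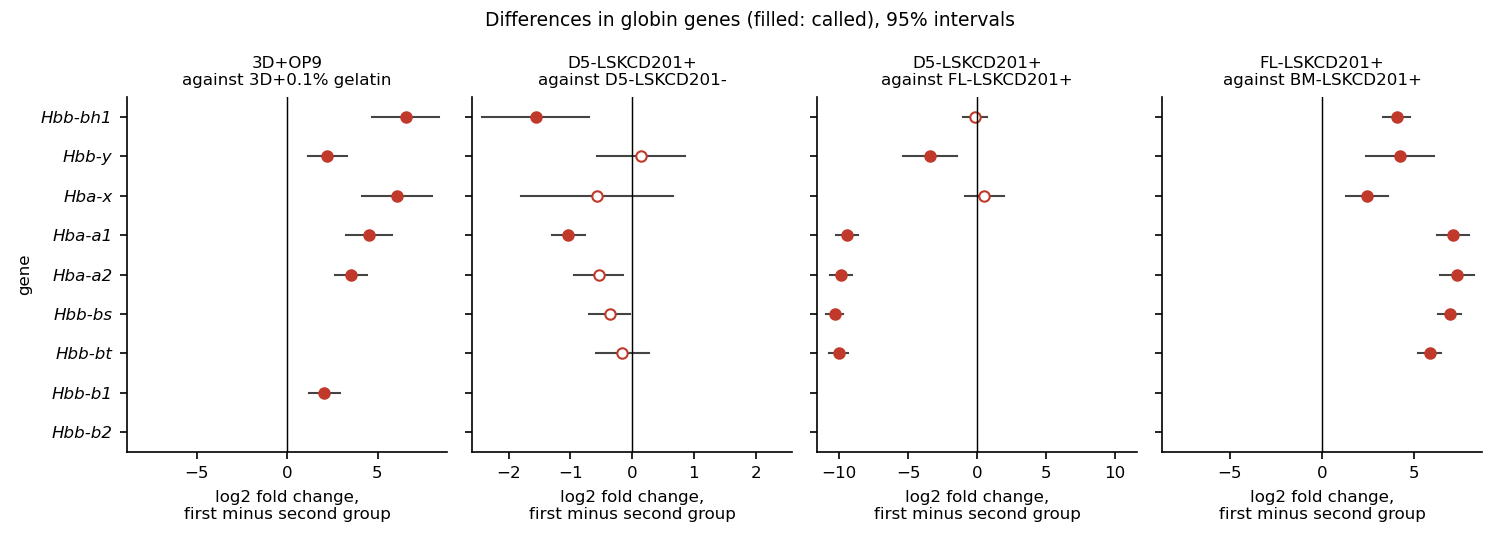
Log2 fold change on the log2(FPKM + 1) scale with its 95% interval for each member tested in 4 comparisons, first group minus second; filled points were called and open points were not, and the horizontal scale differs between panels. The 6 members tested in 3D+OP9 lie above 0, and D5-LSKCD201+ cells lie about 9 to 10 log2 units below fetal liver for the adult genes only.

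The share of embryonic chains was computed in each library, since library size cancels in it. Hba-x made up 66.0%, 69.6% and 72.9% of alpha-like FPKM in 3D+OP9, and Hbb-bh1 with Hbb-y made up 98.5%, 97.5% and 98.5% of beta-like FPKM. On gelatin the shares were spread widely, from 0% to 65.8% for alpha and from 52.9% to 93.7% for beta, over sums of 0.74 to 18.7 FPKM of all globins. The gelatin beta sums hold Hbb-b1 and the equal values of Hbb-bt. With Hbb-bt left out, a choice made after seeing the data, the gelatin beta shares were 80.0%, 69.2% and 96.7%, those of 3D+OP9 were as before, and the groups still did not overlap. In D5-LSKCD201+ the embryonic share was 28.4% ± 8.05 (SD, n = 3) of alpha-like and 53.1% ± 6.21 of beta-like FPKM. In D5-LSKCD201- it was 25.6% ± 13.0 and 71.6% ± 11.2. These D5 shares contain the adult globin level that mESC also showed. In FL-LSKCD201+ the share was at most 0.136% for alpha and 0.769% for beta, both in replicate 1, and at most 0.0140% and 0.138% in the other 2 libraries. In BM-LSKCD201+ it was at most 0.0910% and 0.213%. The groups did not overlap in 13 of the 16 comparisons of shares, with an exact two-sided permutation p of 0.1 each, the smallest that 3 against 3 libraries allow (0.12 adjusted over the 16). The 3 that overlapped were the alpha share between the D5 groups (exact permutation p = 0.9) and both shares between the tissues (exact permutation p = 1 and 0.4).

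**Figure D4:**
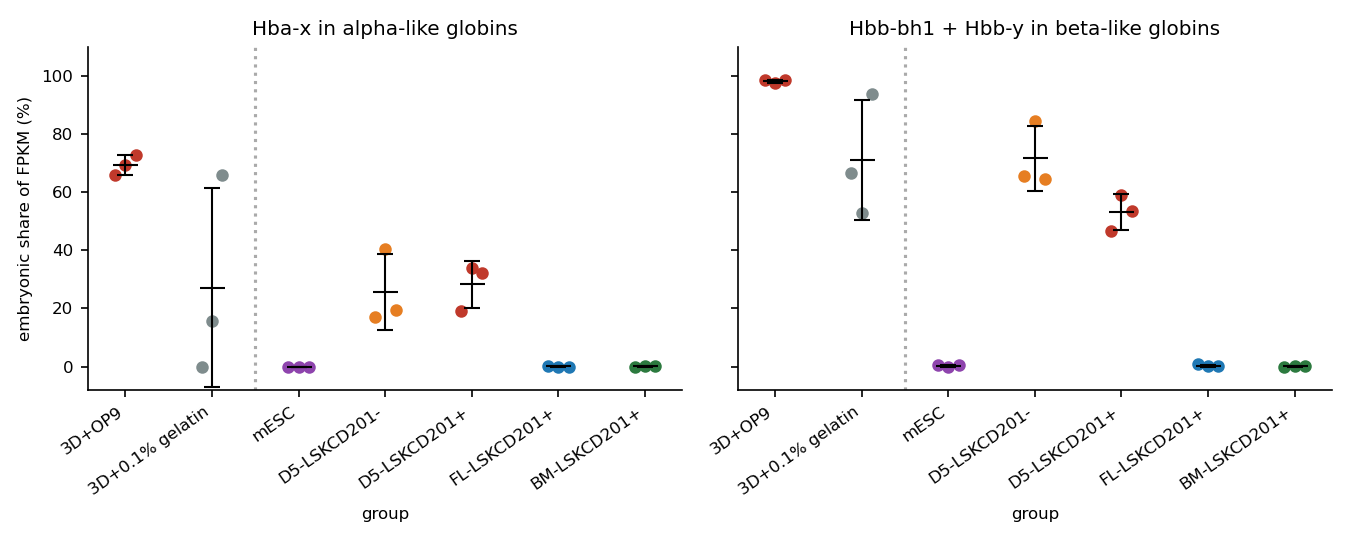
Embryonic share of the alpha-like (left) and beta-like (right) globin FPKM of each library in percent; points are libraries, bars are mean ± SD, and the dotted line separates the coculture table from the sorted-cell table, which were normalized separately. 3D+OP9 lies at 66.0% to 72.9% and 97.5% to 98.5%, the D5 cells between, and mESC, fetal liver and bone marrow near 0; the lower SD bar of the gelatin alpha share passes below 0, where no share can lie.

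Regulators of the globin genes did not follow one pattern across the sorted cells. Between the D5 groups, 7 of 22 regulators were higher in the CD201+ cells and 4 were lower. Of all 13691 genes, 1475 were called higher and 1904 (13.9%) lower, or 1716 and 1599 after quantile normalization. Gata1 was lower, at 0.155, 0.530 and 0.534 FPKM against 3.70, 5.66 and 4.31 FPKM (log2 fold change -1.98 ± 0.17, adjusted p = 4.6e-05), and so were Klf1 (-1.14 ± 0.15, adjusted p = 0.00047), which lost its call at -0.85 after quantile normalization, and Myb, a factor of progenitor growth (-1.57 ± 0.10, adjusted p = 8.3e-06). Gata1 averaged under the filter in D5-LSKCD201+ and passed it only through D5-LSKCD201-, so its call is a description only. Gata2, the GATA factor of stem and progenitor cells (2.42 ± 0.20, adjusted p = 3.4e-05), Tal1 (1.98 ± 0.21, adjusted p = 0.00013) and Sox6 (1.60 ± 0.13, adjusted p = 3.8e-05) were higher in D5-LSKCD201+, where Bcl11a (-0.32 ± 0.17, adjusted p = 0.14), Nfe2 (-0.18 ± 0.13, adjusted p = 0.24), Lin28b (0.13 ± 0.12, adjusted p = 0.37) and Zbtb7a (0.75 ± 0.22, adjusted p = 0.021) were not called. Among other erythroid genes Epor, the erythropoietin receptor, was higher in D5-LSKCD201+ (2.04 ± 0.12, adjusted p = 6.1e-06) and Tfrc lower (-2.16 ± 0.12, adjusted p = 4.0e-06). Alas2 was not called (-0.36 ± 0.17, adjusted p = 0.093), and Slc4a1 stayed under 0.3 FPKM in the D5 libraries. Of 9 erythroid markers tested 3 were higher and 2 lower in the CD201+ cells. The 10 pluripotent markers were all lower in D5-LSKCD201+ and 9 of 10 endothelial markers were higher, and their part in the globin differences was not tested.

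Bcl11a, the silencer of embryonic globins, was at 46.5, 39.4 and 41.8 FPKM in FL-LSKCD201+ and at 53.3, 51.0 and 48.9 FPKM in BM-LSKCD201+. It was at most 1.53 FPKM in mESC and the D5 groups. Lin28b, an RNA-binding protein that marks the fetal state of blood cells, was at 5.10, 6.79 and 6.38 FPKM in fetal liver and 4.06 to 4.60 FPKM in D5-LSKCD201+, and at 0.0821 to 0.113 FPKM in bone marrow (fetal liver against bone marrow, 2.68 ± 0.13, adjusted p = 7.9e-06). Zbtb7a, another silencer, did not differ detectably between the tissues (-0.01 ± 0.08, adjusted p = 0.96), nor did Sox6 (0.28 ± 0.21, adjusted p = 0.28), and Myb was at 77.8 to 96.1 FPKM in fetal liver and 151 to 158 FPKM in bone marrow (-0.88 ± 0.10, under the fold threshold). Gata1 (4.14 ± 0.12, adjusted p = 8.7e-07) and Klf1 (4.96 ± 0.53, adjusted p = 0.00022) were higher in fetal liver.

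**Figure D5:**
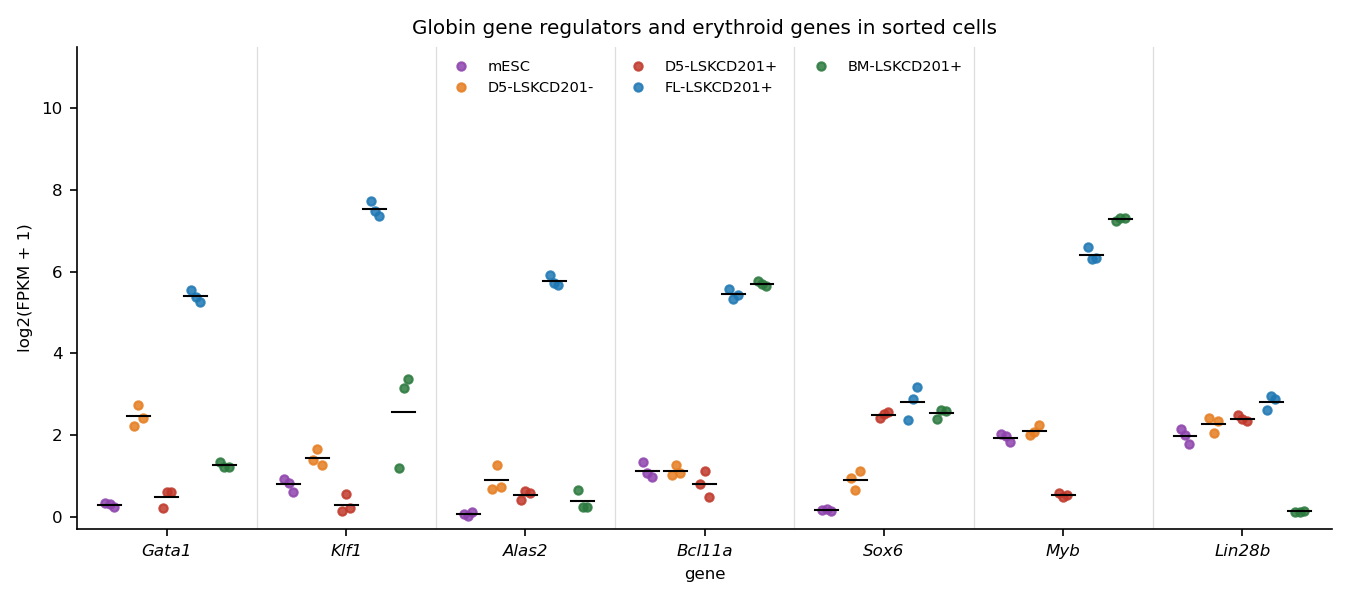
Level of 7 regulators and erythroid genes on the log2(FPKM + 1) scale in the 5 groups of sorted cells, with points for libraries and lines for means. Gata1, Klf1 and Alas2 are highest in FL-LSKCD201+, Bcl11a and Myb are high in fetal liver and bone marrow only, and Lin28b is near 0 in bone marrow only.

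Markers of red cells and of liver cells were high in the fetal liver libraries. Of 23 erythroid markers tested 19 were higher than in bone marrow and 0 lower, with a median log2 fold change of 2.62. Of 12 heme synthesis genes 9 were higher. Among all 13503 genes tested between the tissues 19.1% were called, and 7.78% were called higher. Alas2 was at 59.3, 52.0 and 49.7 FPKM in FL-LSKCD201+ and 0.179 to 0.567 FPKM in BM-LSKCD201+, and Slc4a1 at 39.8, 22.9 and 22.6 FPKM against 0 to 0.0286 FPKM. These groups lay far apart, and replicate 1, with the least adult globin, had the most Slc4a1. Hepatoblast markers summed to 545 to 769 FPKM in fetal liver and 94.4 to 102 FPKM in bone marrow, with 9 of 10 called higher; Afp, the fetal serum protein made by liver cells, was at 188, 271 and 261 FPKM against 5.88 to 9.50 FPKM. Macrophage markers summed to 762 to 777 FPKM against 528 to 555 FPKM. Alas2 and Slc4a1 averaged under the filter in bone marrow and passed it only through fetal liver. Of the hepatoblast markers, 2 were listed at 0 in every bone marrow library and also passed only through fetal liver. The counts of called erythroid, heme synthesis and hepatoblast genes and the median are therefore a description only. The 23 erythroid markers summed to 1474 to 1589 FPKM in fetal liver, 1877 to 1980 in bone marrow, 259 to 271 in D5-LSKCD201+, 464 to 648 in D5-LSKCD201- and 257 to 277 in mESC. Without Car2, left out after its values were seen, the order of the tissues and that of the D5 groups turned, with 571 to 613 FPKM in fetal liver, 63.2 to 79.0 in bone marrow, 103 to 107 in D5-LSKCD201+, 33.4 to 35.5 in D5-LSKCD201- and 24.5 to 30.4 in mESC. What part of the globin FPKM came from red cells in the sort was not tested. No chaperone of alpha globin (Ahsp, also listed as Eraf) was found in either table.

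The other genes of the globin family were low. Hbb-bh2, which lies between Hbb-bh1 and Hbb-bs at 103839124 to 103840520 on chromosome 7, was at 0.35 to 1.37 FPKM in 3D+OP9 and 0.69 to 1.8 FPKM on gelatin (-0.26 ± 0.26, adjusted p = 0.60). Hbq1b, a theta-like gene of the alpha cluster, was at 3.50, 6.93 and 6.75 FPKM in fetal liver and listed at 0 in bone marrow. It passed the filter only through fetal liver, so its log2 fold change of 2.70 ± 0.23 is a description only. Hbq1a reached 1.01 FPKM at most. Cygb (cytoglobin) was at 1.21 to 1.40 FPKM in D5-LSKCD201+ and at most 0.321 FPKM in the other sorted groups, and Mb (myoglobin) and Ngb (neuroglobin) stayed under 1 FPKM in every library of both tables.

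Genes other than the members with the pattern most like Hbb-bh1 and Hba-a1 were sought by Pearson's r of log2(FPKM + 1), as a description over libraries that share their groups. Over the 6 coculture libraries the nearest of these to Hbb-bh1 were Spns2, Sh3tc1, Fam57a, Mical2 and Slc22a18 (r of 0.9997 to 0.996), and the first 3 of them were also nearest to Hba-a1. Among the members themselves, Hbb-bh1 had an r of 0.998 with Hba-x and with Hba-a1 in these libraries, above the values of Fam57a, Mical2 and Slc22a18. Over the 15 sorted-cell libraries the nearest genes outside the members to Hbb-bh1 were Ccdc109b, 0610007P14Rik, Prelid2, Tpi1 and 6330403K07Rik (r of 0.963 to 0.945), and those nearest to Hba-a1 were Mrap, Fam46c, Igsf6, Adgre1 and Cybb (0.994 to 0.986). The member Hba-a2 was nearer to Hba-a1 than any of these (r = 0.997), and Hbb-bs stood at 0.990. Adgre1 and Cybb are genes of macrophages and phagocytes, the first being the F4/80 antigen. In the sorted cells Hbb-bh1 went with Hba-x (r = 0.917) but less with Hbb-y (0.401) and Hba-a1 (0.266).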

How the data were processed

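The deposited values were FPKM per gene and library in 2 tables, made by the authors; per the paper's methods and the submitters' processing notes, TRIzol RNA and VAHTS mRNA-seq libraries were sequenced with paired reads, and the notes list HISAT2 2.0.5, StringTie 1.3.3 and Cuffdiff 1.3.0. The sorted-cell positions were those of GRCm38. The methods give 1 pipeline, alignment to GRCm38 and assembly by StringTie, and do not say whether it made both tables, whose gene identifiers differ. No counts were used and the depth is unknown, so precision is given only as the spread of 3 libraries. FPKM totals were 483263 to 508307 (coculture) and 508622 to 620332 (sorted), and tests stayed within a table.

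Members and gene lists were chosen with earlier results of these data known. log2(FPKM + 1) was tested with limma 3.58.1 (trend, two-sided, R 4.3.3) for 8 pairs of groups among genes averaging 0.5 FPKM or more, with Benjamini-Hochberg adjustment across every gene tested. A gene was called when its adjusted p was below 0.05 and it moved by 1 or more on the log2 scale. Fold changes on this scale understate those of low genes, and ± is the SE. The fit was tested on simulated data. The text names every member, the other globin genes, Ahsp and Eraf, fixed regulators and erythroid, heme and sort markers, and the 5 genes outside the members most like Hbb-bh1 and Hba-a1, except 1 marker that is not reported here; Afp and Car2 were named after their values were seen. Replicate numbers are shared across groups: same-numbered deviations correlated above 0.1 in 3 of 3 pairs only for FL-LSKCD201+ against BM-LSKCD201+ (0.242, 0.202 and 0.159). Only these met the rule for pairs, but the best match was the same number in just 1 of 3, and replicate 1 stood apart in both groups. Nothing in the labels ties them to a shared animal or day. The main fits were unpaired in every comparison, this one included. Alternatives were another pseudocount, filter, scaling, quantile normalization, the replicate block, 1 fit over 5 groups, leaving out each replicate, and, chosen after seeing the data, averaging the closest pair of replicates and leaving Hbb-bt out of the coculture shares. Figures were drawn with matplotlib 3.10.9.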

Additional observations from a re-analysis of the deposited data

How the results depend on the processing

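Of 737 alternative values for the members' log2 fold changes 698 kept direction and call, 14 lost the call, 9 gained it and 16 changed sign; every change of sign was in a difference that was not called. Leaving out single replicates, the ranges of the members' differences that changed sign were -0.19 to 0.39 for Hbb-y between D5-LSKCD201+ and D5-LSKCD201-, -0.19 to 0.10 for Hbb-bs and -0.26 to 0.12 for Hbb-bt between D5-LSKCD201+ and mESC, -0.10 to 0.28 for Hbb-bt between D5-LSKCD201- and mESC (-0.063 with quantile normalization), and -0.52 to 0.12 for Hbb-bh1 between D5-LSKCD201+ and FL-LSKCD201+ (0.043 rescaled to equal totals, 0.072 with the closest pair averaged). Among the other named genes, Zbtb7a changed sign between the tissues, over -0.039 to 0.025 without single replicates (0.017 rescaled and 0.021 with quantile normalization). The number of members called changed by more than 1.5 times only between D5-LSKCD201+ and D5-LSKCD201-, from 2 to 1 after rescaling and to 1 to 2 without single replicates; the cause was the fold of Hba-a1 at the threshold. Without single replicates, 4 to 6 members were called in 3D+OP9 against gelatin, where all genes called numbered 339, 531 with a pseudocount of 0.1 and 209 without 3D+0.1% gelatin replicate 2; the cause was not tested. With the replicate number as a block, 6, 2, 2, 3, 5, 6, 6 and 7 members were called in the 8 comparisons in the order of the text, the numbers of the unblocked fits, so the block changed no call of a member. Quantile normalization moved the median of all genes by up to 0.21 (D5-LSKCD201+ against BM-LSKCD201+). The embryonic shares were recomputed only from summed FPKM, without single replicates and, in the coculture, without Hbb-bt (gelatin beta 82.0% from 71.1%): the gelatin alpha share of 27.2% was 58.1% from sums and 7.89% without replicate 3, and the FL-LSKCD201+ shares of 0.0537% (alpha) and 0.344% (beta) were 0.0126% and 0.131% without replicate 1. Without read counts, low values such as Hbb-b2 or mESC Hbb-bh1 have no stated precision.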
